A study of Mus musculus with 4 samples.

Results

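The extracellular matrix genes described here are 39 genes chosen by symbol from the 27998 genes of the count tables: 15 collagens, 7 laminin chains and 17 other matrix genes. They were followed in the mouse mammary gland, in its basal cells and in the luminal lineages, the progenitors (LP) and the mature luminal (ML) cells. Single-cell RNA-seq libraries (10x Chromium, 3′ tags) came from glands of female FVB/NJ mice, with 1 library from pubertal mice of 5 weeks and 1 library each from adults of 10 weeks in estrus and in diestrus. Mice were pooled within a library, with no transgene or treatment named in the labels, and the epithelium was sorted as CD24+ cells depleted of blood and endothelial cells, so that the libraries are not separate animals. All 39 symbols were found, and 34 passed the filter on low counts used for the lineage tests.

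The basement membrane is a sheet of laminin and type IV collagen networks, joined by nidogen and by the heparan sulfate proteoglycans perlecan and agrin. In the mammary gland it surrounds each duct, and the basal (myoepithelial) cells sit directly on it while most luminal cells face the lumen. Fibrillar collagens such as types I and III belong to the stroma and are known chiefly as fibroblast products, and matricellular proteins such as SPARC, periostin and thrombospondin bind matrix and cells without being structural fibres themselves.

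Promoter sequences from RefSeq (GRCm38.p6) were matched for 29 of the 39 genes. The 4 printed here belong to members that the results turn on: Postn and Col7a1, which varied between stages in basal cells, Lama5, which was high in ML cells, and Serpinh1, a collagen chaperone found in every lineage. Each is the stretch of 100 bases before the start site on the gene's strand, 5′ to 3′, and holds no annotated exon. Capitals mark TATAAA or GGGCGG on either strand.
Postn (chr3:54361007-54361106, + strand): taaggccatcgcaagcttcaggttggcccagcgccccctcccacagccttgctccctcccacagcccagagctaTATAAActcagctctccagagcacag
Lama5 (chr2:180225860-180225959, - strand): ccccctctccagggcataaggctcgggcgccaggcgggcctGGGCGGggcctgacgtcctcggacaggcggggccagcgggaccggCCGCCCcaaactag
Serpinh1 (chr7:99353240-99353339, - strand): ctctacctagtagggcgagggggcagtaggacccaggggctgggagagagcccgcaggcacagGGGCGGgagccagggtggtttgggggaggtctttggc
Col7a1 (chr9:108953486-108953585, + strand): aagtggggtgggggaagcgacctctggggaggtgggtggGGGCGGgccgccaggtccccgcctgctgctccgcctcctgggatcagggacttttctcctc

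In Postn the TATAAA began 26 bases before the start site, whereas the other 3 stretches held GGGCGG and no TATAAA. Over the 250 bases before the start, 23 of the 35 windows of the members held GGGCGG, against 32.7% of all 32851 promoters, and 5 held TATAAA, against 12.4%. CCAAT was found in 13 of the 35 windows (33.8% of all), CATTCC in 6 (12.6%) and TGACTCA in 1 (4.46%). These are letter matches on both strands and not binding sites. Col4a1 and Col4a2, which encode the chains of the common type IV collagen, lie head to head on chromosome 8, and their annotated 5′ ends overlap by 22 bases (11312805 to 11312826 in GRCm38).

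The libraries held 5428 (puberty), 2729 (estrus) and 2439 (diestrus) barcodes with median counts of 4103, 3236 and 3974. A second pubertal table shared 5387 barcodes with the first, and the totals of shared barcodes had a Pearson correlation of 0.997, so the tables were counted as 1 library. Other pairs of libraries shared 13 to 24 barcodes. Counts were summed over basal (1223, 1302 and 1063 cells in puberty, estrus and diestrus), LP (1786, 479 and 583) and ML cells (2182, 755 and 687). Each lineage cluster carried its own markers, fixed for basal, LP and ML cells. Levels are given as CPM, counts scaled to the size of each sum after adjustment by trimmed mean of M values (TMM); with 3′ tags they do not scale with transcript length. Summed marker lists and the levels in cycling and other cells are CPM of plain totals, without TMM. The intervals given cover counting error only. In such sums, fewer expressing cells and less RNA per cell cannot be told apart.

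Basal cells devoted the largest share of their counts to the matrix genes. The 39 genes made up 0.59% of basal counts in the pubertal library (95% exact interval from 0.583 to 0.597%). The share was 0.672% of counts for estrus, with an interval from 0.664 to 0.679%, and 0.544% for diestrus, with an interval from 0.537 to 0.55%. In LP cells the share was 0.0517%, 0.0512% and 0.0665%, and in ML cells 0.0457%, 0.042% and 0.0399%. The basal and luminal shares did not overlap in any library. Sparc, which encodes a collagen-binding glycoprotein, supplied 23.3%, 32.8% and 30.4% of the basal matrix counts, followed by Serpinh1 with 16.2%, 14.1% and 19%. In LP cells Serpinh1 (28.9%, 29.6% and 34.1%) and Timp2 (17.6%, 25.2% and 14.7%) led. The leading gene in ML cells was Col6a3 in puberty (21%) and Mmp14 in estrus (25.4%) and diestrus (21.1%).

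**Figure D1:**
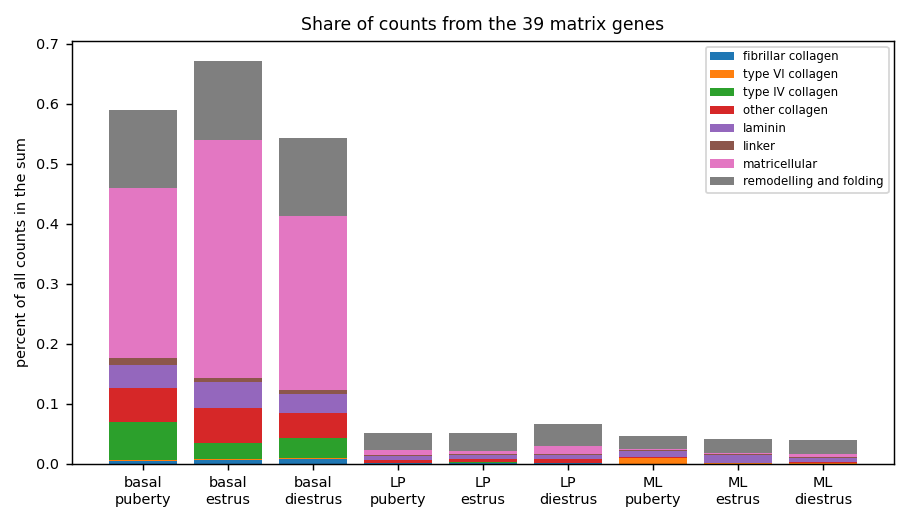
Percent of all counts in each of the 9 lineage sums that came from the 39 matrix genes, stacked by role (1 bar per lineage and library, 3 lineages by 3 libraries). The basal bars reach 0.544 to 0.672%, and the luminal bars stay at or below 0.0665%.

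Basal cells were next compared with luminal cells, to ask which lineage carries the messages of the basement membrane. Of the 34 genes that passed the filter, 29 were higher in basal than in luminal cells and 0 were higher in luminal cells (edgeR quasi-likelihood test, adjusted p under 0.01, with the library as a term), while across all 11302 genes tested 20.6% were called toward basal cells and 17% toward luminal cells. At an unadjusted p under 0.05 the luminal count was also 0, and DESeq2 gave 0. Luminal here means the average of LP and ML cells, so a gene above basal cells in ML cells alone can go uncalled. In ML cells Col6a3 was at 822%, 236% and 599% of its basal level in puberty, estrus and diestrus, and Lama5 at 185%, 443% and 200%. Nor does a basal call mean that basal cells were above each luminal lineage. Mmp14, which was called, was at 97.5%, 148% and 118% of its basal level in ML cells. In LP cells the called genes Tnc, Lama4 and Col11a1 were at 237%, 123% and 36.8% in puberty, 122%, 74.9% and 105% in estrus, and 30.5%, 21% and 48.6% in diestrus. For 14 of the 34 the luminal sums did not pass the filter by themselves. The filter thus favoured the basal direction, and their p-values are no support for it: Col5a2, Col6a1, Col4a2, Col7a1, Col17a1, Col18a1, Lama3, Lama4, Nid1, Hspg2, Fn1, Tnc, Fbln2 and Spon2. This applies to the basal to luminal p-values of these 14 wherever they are printed below. Tnc needed LP sums as well, since its basal sum of puberty, at 1.7 CPM, was under the cutoff of 2.23 CPM. Of the other 20, 15 were higher in basal cells and 5 were not called. Their median log2 difference was 3.56, that of the 34 genes 4.69 and that of all genes 0.01. The 5 genes not called were Col6a3, Lama5, Lamb2, Timp1 and Timp2, and the 5 that failed the filter were Col1a1, Col1a2, Col3a1, Col6a2 and Nid2.

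**Figure D2:**
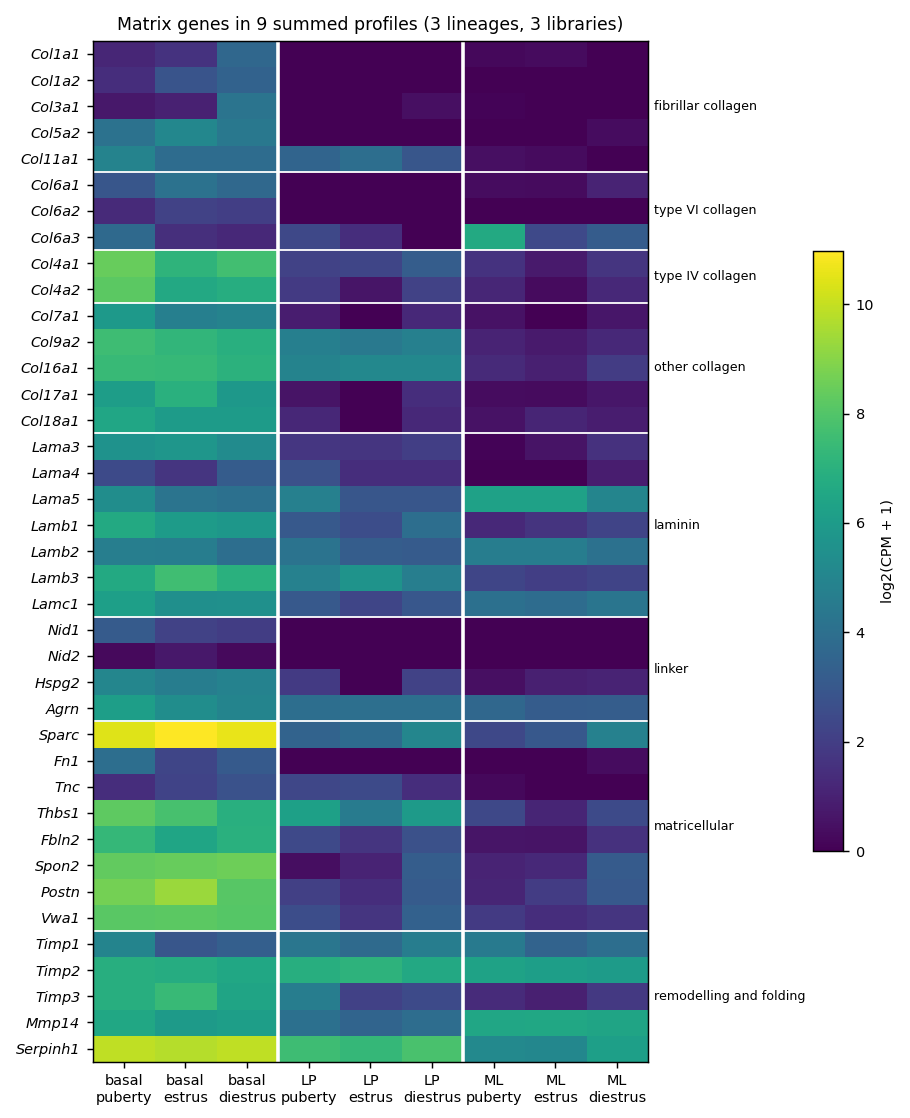
Level of each of the 39 genes as log2(CPM + 1), by colour, in the 9 sums (columns: 3 lineages by 3 libraries; rows grouped by role). Sparc and Serpinh1 were brightest in basal cells, reaching 2002 and 973.6 CPM, and Lama5, Mmp14 and pubertal Col6a3 stood out in ML cells.

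Type IV collagen, the network of the basement membrane, was found almost entirely in basal cells. Col4a1 was at 345 CPM in puberty, 140.2 in estrus and 197.9 in diestrus in basal cells, against 0.7 to 8.3 CPM in the 6 luminal sums. The basal and luminal ranges did not overlap, and the log2 difference was 6.34 ± 0.28 (SE, adjusted p = 1.77e-06). Col4a2 was at 295.6, 97.6 and 113.9 CPM in basal cells and at most 3.5 CPM in luminal cells, a log2 difference of 6.89 ± 0.25 (adjusted p = 5.05e-08).

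Next came the collagens outside the fibrillar, type IV and type VI groups. Of these, Col17a1, Col7a1 and Col18a1 passed the filter through basal sums alone. Col17a1, the transmembrane collagen of hemidesmosomes, was at 67.9, 122.8 and 55.8 CPM in basal cells, and 7.16 ± 0.32 log2 units above luminal cells (adjusted p = 7.82e-08). Col7a1, which forms anchoring fibrils, lay at 59.3, 25.4 and 28.7 CPM and was 6.23 ± 0.32 units higher (adjusted p = 6.77e-08). Col18a1, a basement membrane collagen carrying heparan sulfate, ranged from 63.1 to 88.3 CPM and was 6.37 ± 0.26 units higher (adjusted p = 1.89e-08). The smallest adjusted p of the collagens belonged to Col9a2 (4.9 ± 0.16, adjusted p = 3.33e-09), with basal levels of 186.8, 148 and 118.8 CPM. Col16a1 was at 166.6, 164 and 131.3 CPM and 4.4 ± 0.17 units higher (adjusted p = 1.17e-08).

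The fibrillar collagens were scarce in this epithelium. Col1a1, Col1a2 and Col3a1 together had 17, 46 and 199 counts in basal cells of puberty, estrus and diestrus and at most 3 counts in any luminal sum. In diestrus 87.4% of those 199 counts lay in 5 cells, and the 4 basal cells with more than 5 such counts had a count for a median of 7.5 of 10 fibroblast markers, against 1 in the whole basal class. Without those cells Col3a1 in diestrus went from 17.5 to 2.36 CPM and Col1a1 from 11.8 to 1.38, whereas Sparc went from 1558 to 1554. The summed fibroblast list was at 613, 1207 and 783 CPM in basal cells, led by Gsn, with Dpt, Fap and Pi16 at 0 in puberty and estrus and no marker at 0 in diestrus. The stromal clusters left out of the sums held 13, 56 and 0 cells in puberty, estrus and diestrus. The part of this step in the fibrillar counts was not tested. Whether fibroblast RNA contributed to other members was not tested either.

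Col5a2 differed from these, with 342 basal counts spread at 16.6, 33.1 and 20 CPM and 1 luminal count, a ratio of 685 with a counting interval from 122 to 27123. Fn1, fibronectin, had 126 basal counts and 1 luminal count (ratio 252, interval 44.5 to 10042), and without the 4 diestrus cells above it went from 7.66 to 5.12 CPM in diestrus. The fitted differences were 8.83 ± 0.49 for Col5a2 (adjusted p = 7.35e-07) and 7.86 ± 0.68 for Fn1 (adjusted p = 1.28e-05), each resting on 1 luminal count. Col11a1 was at 28.9, 13.8 and 13.5 CPM in basal cells and at 10.6, 14.5 and 6.6 CPM in LP cells, so the basal and LP levels overlapped between libraries (basal to luminal difference 3.52 ± 0.32, adjusted p = 4.8e-06). Col6a1, a type VI chain, was at 6.7, 16.6 and 12.2 CPM in basal cells and at 0 to 1.1 CPM in luminal cells (log2 difference 6.52 ± 0.53, adjusted p = 7.83e-06).

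Laminins, the trimers to which epithelial integrins attach, divided by chain. Lama3 and Lamb3 encode chains of laminin-332, the hemidesmosome ligand. Lamb3 stood at 99.3, 193.8 and 122.9 CPM in basal cells, 27.5, 48.5 and 24.6 in LP cells and 4, 3.1 and 3.7 in ML cells. It was the laminin with the smallest adjusted p (log2 difference 3.59 ± 0.16, adjusted p = 3.12e-08), and its levels in the 3 lineages did not overlap. Lama3 was 5.18 ± 0.36 units higher in basal cells (adjusted p = 5.12e-06). Lamc1, the gamma chain shared by most laminins, was higher in basal cells by 2.42 ± 0.17 (adjusted p = 7.33e-07), and Lamb1 by 4.08 ± 0.34 (adjusted p = 4.68e-05). Lama4 was low, at 4.5, 2.2 and 8.2 CPM in basal cells and 5.6, 1.7 and 1.7 CPM in LP cells. The basal and LP levels overlapped between libraries, and ML cells were at 0 to 0.9 CPM. The basal to luminal difference of Lama4 was 2.67 ± 0.65 (adjusted p = 0.00627, and 0.046 without the estrus library).

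Lama5, the alpha chain of laminin-511 and laminin-521, did not follow them. Its level was 75.5, 77.3 and 30.6 CPM in ML cells, 40.7, 17.5 and 15.3 in basal cells and 26.3, 6.7 and 6.6 in LP cells. Within each library ML was the highest lineage and LP the lowest. The basal to luminal difference, which averages LP and ML, was -0.26 ± 0.28 (adjusted p = 0.481). Lamb2 was at 24.8, 23.7 and 14.5 CPM in basal cells and 24.1, 24.4 and 15.9 in ML cells, a basal to luminal difference of 0.41 ± 0.18 (adjusted p = 0.0716).

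The linkers were basal but low. Nid1, nidogen, had 68 basal counts and 0 luminal counts, which makes it at least 45.4-fold higher in basal cells when the luminal floor is set at 3 counts over the group. Hspg2, perlecan, was at 31.7, 23.9 and 28.3 CPM in basal cells (log2 difference 4.48 ± 0.34, adjusted p = 2.67e-06), and Agrn, agrin, at 70.7, 40.6 and 30.2 CPM (1.96 ± 0.19, adjusted p = 6.6e-06). In luminal cells Agrn was at 8.1 to 15 CPM and Hspg2 at 0 to 3.5 CPM. Nid2 had 5 counts in all basal sums.

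All 8 genes of the group of matricellular proteins and other matrix glycoproteins were called higher in basal cells than in the luminal average. For Fn1, Tnc, Fbln2 and Spon2, however, the luminal sums did not pass the filter by themselves. Sparc was at 1392, 2002 and 1558 CPM in basal cells and at 4.1 to 31.9 CPM in luminal cells (log2 difference 7.05 ± 0.48, adjusted p = 0.000239). Thinned to 1500 counts a cell, 80.5%, 93.9% and 89.3% of basal cells had a Sparc count, and 0.695 to 2.61% of luminal cells did. Fbln2, a fibulin, had the smallest adjusted p of the group (6.09 ± 0.21, adjusted p = 7.14e-09), followed by Vwa1 (6.26 ± 0.22, adjusted p = 1.12e-07) and Fn1 (adjusted p = 1.28e-05). Postn, periostin, was 6.84 ± 0.55 higher (adjusted p = 0.000448) and Spon2 7.06 ± 0.57 (adjusted p = 0.000469). Tnc, tenascin C, was the weakest of them (2.39 ± 0.61, adjusted p = 0.00708). It was at 1.7, 3.7 and 5.7 CPM in basal cells and 4.1, 4.5 and 1.7 CPM in LP cells. LP thus lay above basal cells in puberty and estrus, while ML cells were at 0 to 0.18 CPM. Without the estrus library the adjusted p was 0.0115 for Sparc, 0.0112 for Postn, 0.0181 for Spon2 and 0.0478 for Tnc. It was 0.0655 for Tnc without the diestrus library and 0.0204 for Thbs1 without the pubertal library.

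Among the genes of remodelling and folding, Serpinh1 (HSP47, the collagen chaperone of the endoplasmic reticulum) was at 965.4, 863.2 and 973.6 CPM in basal cells, 188.5, 158.2 and 224 in LP cells and 34.8, 33 and 71.8 in ML cells. The lineages did not overlap (log2 basal to luminal difference 3.36 ± 0.15, adjusted p = 6.64e-07). Mmp14, a membrane-bound collagenase, was at 89.1, 91.2 and 82.8 CPM in ML cells, at 91.4, 61.5 and 70.3 CPM in basal cells and at 15.7, 10.6 and 14.2 CPM in LP cells. The ML and basal ranges overlapped and LP lay below both, with a basal to luminal difference of 1.09 ± 0.13 (adjusted p = 2.77e-05). Timp3, a matrix-bound inhibitor of metalloproteinases, was 4.89 ± 0.53 higher in basal cells (adjusted p = 0.000891, and 0.0186 without the diestrus library). Timp2, a soluble inhibitor, was at 92.7 to 116.1 CPM in basal, 96.4 to 134.3 in LP and 64.7 to 78.6 CPM in ML cells. The basal and LP ranges overlapped, and ML lay below both.

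**Figure D3:**
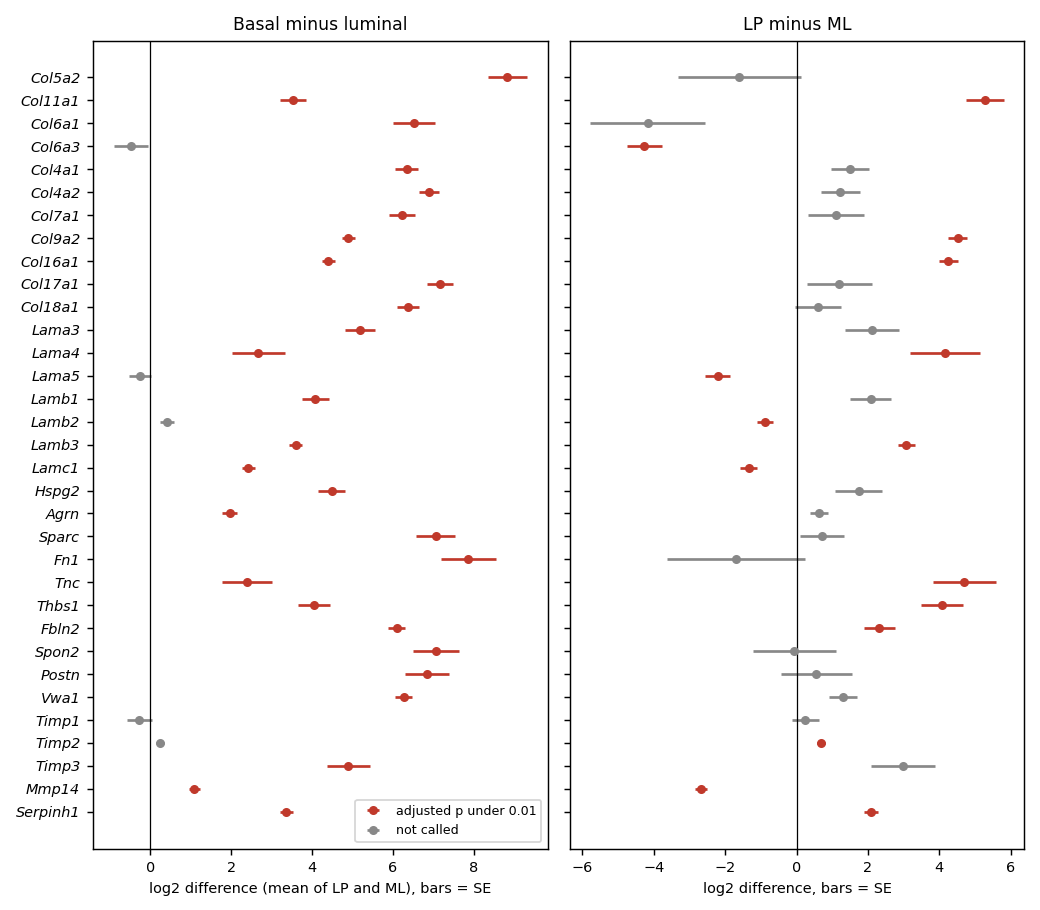
Fitted log2 differences with SE between basal and luminal cells (left) and between LP and ML cells (right) for 33 of the 34 genes tested, omitting Nid1, which had 0 luminal counts. Red points passed an adjusted p under 0.01, all to the right of 0 on the left panel and on both sides of 0 on the right panel.

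LP and ML cells were then compared with each other. Of the 34 genes, 10 were higher in LP and 5 were higher in ML cells, against 14.6% and 12.9% of all genes tested. The LP genes were Col11a1, Col9a2, Col16a1, Lama4, Lamb3, Tnc, Thbs1, Fbln2, Timp2 and Serpinh1. The ML genes were Col6a3, Lama5, Lamb2, Lamc1 and Mmp14. Laminin chains were thus called in both directions.

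Col9a2 was at 25.5, 20.6 and 26.4 CPM in LP cells and 0.7 to 1.4 in ML cells (log2 difference 4.53 ± 0.27, adjusted p = 3.37e-07). Col16a1 was at 29.1, 34 and 33.3 CPM in LP cells and 1 to 2.8 in ML cells (4.26 ± 0.27, adjusted p = 5.44e-07). The LP values of both collagens lay above every ML value and below every basal value. Lamb3 was 3.07 ± 0.24 units higher in LP cells (adjusted p = 2.9e-06), Serpinh1 2.09 ± 0.2 (adjusted p = 6.68e-05) and Thbs1, thrombospondin 1, 4.07 ± 0.59 (adjusted p = 0.00377). Col11a1 was higher in LP cells by 5.29 ± 0.52 (adjusted p = 1.54e-05), Tnc by 4.71 ± 0.89 (adjusted p = 0.00152), Fbln2 by 2.32 ± 0.44 (adjusted p = 0.00153) and Timp2 by 0.69 ± 0.12 (adjusted p = 0.000683). Without the pubertal library the adjusted p of Thbs1 was 0.076, that of Fbln2 0.0316 and that of Tnc 0.0147. Without the estrus library it was 0.0201 for Timp2, 0.0164 for Fbln2, 0.0212 for Tnc and 0.0542 for Lama4.

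On the ML side, Mmp14 differed by -2.68 ± 0.17 (LP minus ML, adjusted p = 4.84e-07), Lama5 by -2.21 ± 0.34 (adjusted p = 0.00137), Lamc1 by -1.35 ± 0.25 (adjusted p = 0.00125) and Lamb2 by -0.88 ± 0.22 (adjusted p = 0.00735). Each was lower in LP than in ML cells in 3 of 3 libraries. Lama5, Lamb2 and Lamc1 encode the alpha, beta and gamma chains that form laminin-521. Col6a3, a chain of the microfibrillar type VI collagen, differed by -4.26 ± 0.49 (adjusted p = 0.000133). Without the pubertal library its adjusted p was 0.0241. The adjusted p of Lama5 was 0.0203 without the diestrus library, that of Lamc1 0.0116 without the estrus library, and that of Lamb2 0.0455 without the estrus and 0.0372 without the diestrus library.

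Because free basal RNA can enter luminal droplets, the luminal levels were set beside those of 8 smooth muscle contractile genes of basal cells (Acta2, Tagln, Myl9, Cnn1, Tpm2, Mylk, Actg2 and Myh11). The highest of these 8 reached 1.53%, 1.04% and 3.43% of its basal level in LP cells of puberty, estrus and diestrus, and 0.995%, 0.494% and 2.81% in ML cells. Of 23 members with at least 20 CPM in basal cells of every library, 6 were at or under that mark in all 3 LP sums: Col4a2, Col17a1, Col18a1, Sparc, Spon2 and Postn. In ML cells 7 were: Col4a2, Col7a1, Col9a2, Col17a1, Sparc, Spon2 and Postn. No luminal expression was read from these counts.

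Above the mark in all 3 LP sums were 13 members, among them Serpinh1 (19.5%, 18.3% and 23% of the basal level), Lamb3 (27.6%, 25% and 20%), Col16a1 (17.5%, 20.7% and 25.3%) and Thbs1 (24.6%, 10.6% and 51.9%). In ML cells 10 were above it, among them Mmp14 (97.5%, 148% and 118%), Lamc1 (21.8%, 31.3% and 41.2%) and Agrn (16.7%, 20% and 28.1%). The percentage was highest in diestrus for 7 of 8 contractile genes and 20 of 23 members in LP cells, and for 8 of 8 and 19 of 23 in ML cells.

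**Figure D4:**
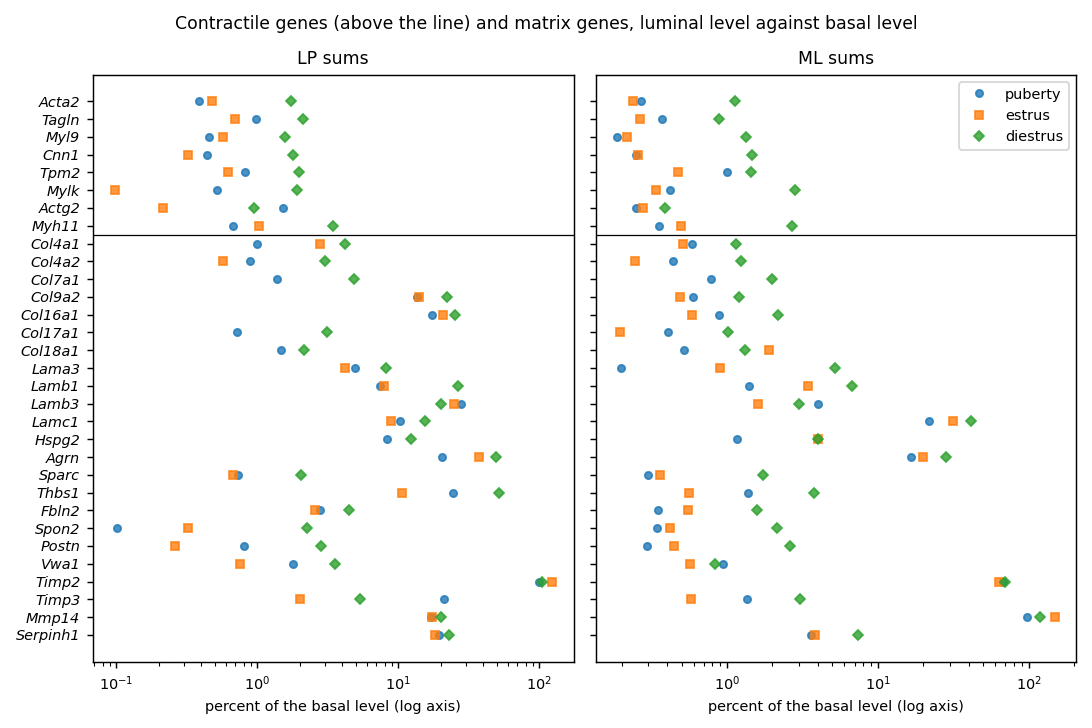
Level in LP (left) and ML (right) sums as a percentage of the basal level of the same library, on a log axis, for 8 contractile genes above the line and members with 20 CPM or more in every basal sum below it; sums with 0 counts are not drawn. Sparc and Postn sit with the contractile genes, and Timp2, Mmp14, Agrn and Lamc1 lie far to their right in ML cells.

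Stages were compared within each lineage, to ask how the matrix genes varied through puberty and the estrous cycle. Each stage had 1 library, so no test was made and differences cannot be told apart from differences between libraries. Ratios are log2 of CPM plus 1, and a gene was past the fold at 1 log2 unit with at least 20 CPM in a compared sum. The intervals were taken from the counts without the added 1. The comparisons share libraries. Without scaling factors the median of all genes in the puberty ratios moved down by 0.1 to 0.35 log2 units.

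In basal cells 28 members were measured for puberty. Against both adult phases 5 were higher in puberty by the fold (2.36% of all genes) and 0 were lower (0.758% of all genes). Col4a2 was higher by 1.59 than in estrus (interval 1.45 to 1.75) and by 1.37 than in diestrus (1.24 to 1.52). Its partner Col4a1 was higher by 1.29 (1.17 to 1.43) and 0.8 (0.69 to 0.92), short of the fold against diestrus. Col7a1 was higher by 1.19 (0.91 to 1.54) and 1.02 (0.75 to 1.35). Lama5 was higher by 1.18 (0.85 to 1.61) and 1.35 (1.02 to 1.81), and Col11a1 by 1.01 (0.63 to 1.51) and 1.04 (0.66 to 1.53). Timp1, a soluble metalloproteinase inhibitor, was at 29.7 CPM against 6.7 in estrus and 9 in diestrus, a ratio of 2 (interval 1.59 to 2.74) and 1.62 (1.23 to 2.23). The intervals of Col7a1 and Col11a1 reached below 1 log2 unit in both ratios, and without cycling cells the smaller ratio was 0.96 for Col7a1 and 0.67 for Col11a1, under the fold. Luminal markers in basal cells moved with these stages: the ML list was at 553, 167 and 111 CPM in puberty, estrus and diestrus and the LP list at 3016, 1583 and 1323 CPM, with no marker of either at 0. Their part in the ratios, also those of Lama5 and Timp1, which luminal cells express, was not tested.

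**Figure D5:**
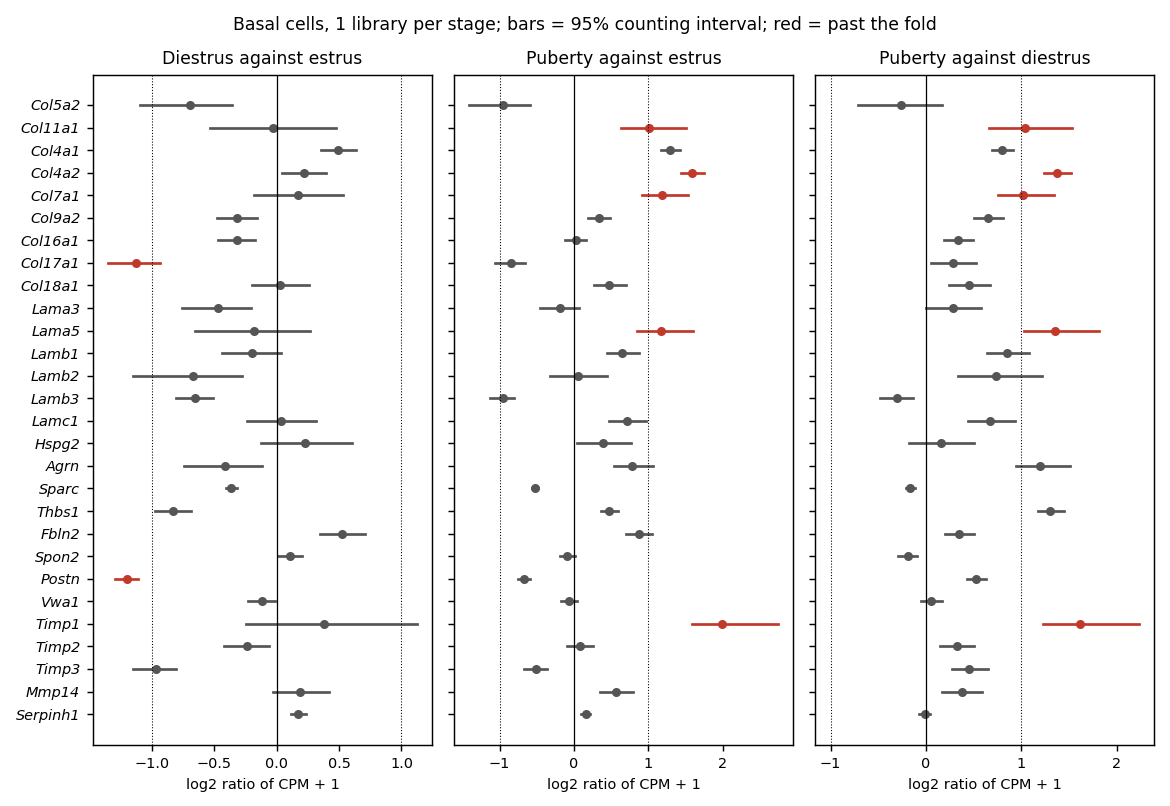
Log2 ratios between stages in basal cells, with 95% counting intervals, for members with at least 20 CPM in a compared basal sum (1 library per stage); red marks members past the fold, which for puberty means in both ratios. Col4a2 and Timp1 stood highest in puberty, and Postn and Col17a1 were lowest in diestrus against estrus.

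Between the adult phases, 25 members were measured in basal cells, of which 0 were higher in diestrus by the fold (6.06% of all genes) and 2 were lower (4.06% of all genes). Postn was at 404.5 CPM in puberty, 645.2 in estrus and 280.6 in diestrus, a diestrus to estrus ratio of -1.2 (interval -1.29 to -1.11). Col17a1 was at 55.8 CPM in diestrus and 122.8 in estrus, a ratio of -1.13 (-1.35 to -0.93). Timp3 (-0.97) and Thbs1 (-0.83) lay just inside the fold, and Lamb3 was at -0.65.

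The share of basal cells with cycling genes moved with these stages: 12.8% in puberty, 5.84% in estrus and 24.3% in diestrus. Cells were not thinned for this call, and the median counts of basal cells ranked in the same order, at 3036, 2576 and 3410. The part of depth in these shares was not tested. Postn was at 69, 72 and 187 CPM in cycling basal cells and at 504, 826 and 380 CPM in the others, lower in cycling cells in all 3 libraries. Without cycling cells its diestrus to estrus ratio, with TMM computed anew, was -1.04, and that of Col17a1 -1.03. Fbln2 ran the other way, at 231, 258 and 155 CPM in cycling cells and 134, 66 and 116 CPM in the others. Col4a1 was at 406 CPM in cycling and 320 CPM in other cells in puberty and at 286 and 130 CPM in estrus, but at 205 and 214 CPM in diestrus.

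In LP cells 10 members were measured for puberty. Lama5 was at 26.3 CPM in puberty and at 6.7 and 6.6 CPM in estrus and diestrus, higher by 1.83 (interval 1.13 to 2.96) and 1.85 (1.31 to 2.77). Timp3 was at 24.4 CPM against 3.3 and 4.5 CPM, higher by 2.55 (1.71 to 4.33) and 2.2 (1.62 to 3.38). These 2 were the members past the fold upward (1.76% of all genes), and 0 were past it downward (0.344%). Diestrus against estrus, 2 of 8 members were higher (6.47% of all genes) and 0 lower (5.02%). Thbs1 was at 62.8 CPM in diestrus and 22.8 in estrus (1.42, interval 0.96 to 1.98). Sparc was at 31.9 and 13.4 CPM (1.2, interval 0.59 to 1.97), which was within the level that the contractile genes reached, and with classes taken from the marker score its ratio was -1.27.

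In ML cells Col6a3 gave the widest stage difference of the members measured. It was at 101 CPM in puberty, 4.3 in estrus and 8.2 in diestrus, higher in puberty by 4.26 (interval 3.88 to 5.31) and 3.47 (3.09 to 4.2). Of thinned ML cells 10.9% had a Col6a3 count in puberty, 0.812% in estrus and 1.63% in diestrus, while 0.842% or fewer of the basal cells did. The other type VI chains did not accompany it, since Col6a1 was at or under 1.1 CPM in ML cells and Col6a2 at 0. The fibroblast list summed to 780, 543 and 938 CPM in ML cells, led by Gsn in puberty and estrus and by Dcn in diestrus, with Lum, Dpt, Fap and Pi16 at 0 in each. Col6a3 was the 1 member of 8 measured past the fold upward in puberty (2.16% of all genes), with 0 downward (0.324%).

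Diestrus against estrus in ML cells, 2 of 6 members were higher (5.13% of all genes) and 1 was lower (1.77%). Lama5 was at 30.6 CPM in diestrus and 77.3 in estrus, a ratio of -1.31 (interval -1.66 to -1.02). Serpinh1 was at 71.8 and 33 CPM (1.1, interval 0.82 to 1.43). Sparc was at 27 and 7.2 CPM (1.77, interval 1.3 to 2.55), again within the contractile level. With classes from the marker score the ratio was 0.19 for Sparc and 0.98 for Serpinh1, both under the fold, and without scaling factors that of Serpinh1 was 0.9. The summed basal marker list in ML cells was at 62.6, 102 and 252 CPM in puberty, estrus and diestrus, and at 121, 171 and 471 CPM in LP cells. The part of basal RNA in these luminal ratios was not tested.

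Other genes of the matrix system were read against the members. Here too some basal calls were of genes that passed the filter through basal sums alone, so their p-values are no support for the direction. Among them were Lama1, Itga1, Itga9, Sdc3, Loxl3, Mmp2, Mmp23, Adamts2, Adamts5 and Htra1, under the filter cutoff of 2.23 CPM in every luminal sum. Of 9 further laminin and type IV chains, 4 passed the filter and 4 were higher in basal cells (20.6% of all genes). Lama1 had a log2 difference of 6.31 ± 0.32 (adjusted p = 1.17e-07), but its direction was fixed by the filter, with at most 1.39 CPM in luminal sums. Col4a5 and Col4a6 were higher in basal cells by 2.07 and 2.55.

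Of 23 matrix receptors, 21 were tested, 15 were higher in basal cells (20.6% of all genes) and 0 lower (17%). Itgb1, the shared integrin beta chain, was 1.43 ± 0.09 higher (adjusted p = 2.46e-07), Itga6, the laminin-binding alpha chain, 2.1 ± 0.11 (adjusted p = 7.82e-08), Bcam, a receptor of laminin alpha 5, 2.13 ± 0.12 (adjusted p = 1.32e-07) and Dag1, dystroglycan, 1.61 ± 0.12 (adjusted p = 1.02e-06). Of 21 genes of collagen processing, 16 were tested and 13 were higher in basal cells, among them the prolyl hydroxylase subunit P4ha1 (2.78 ± 0.21, adjusted p = 1.01e-06), against 20.6% of all genes tested. P4ha2, a prolyl hydroxylase subunit, was higher in ML than LP cells (LP minus ML -3.52 ± 0.34, adjusted p = 1.39e-05), as was Plod1 (-2.44 ± 0.24, adjusted p = 1.69e-05). Of 19 proteases and inhibitors, 13 were tested, 9 were higher in basal cells (20.6% of all genes) and 1 in luminal cells (17%). The basal calls include Mmp2, Mmp23, Adamts2, Adamts5 and Htra1, whose direction was fixed by the filter. Adamts1 had the smallest adjusted p (6.08 ± 0.2, adjusted p = 4.4e-08), and Mmp15, a membrane-type metalloproteinase, was the luminal gene (-3.4 ± 0.26, adjusted p = 1.46e-06).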

How the data were processed

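The authors sorted mammary epithelial cells from pooled mice, made 10x Chromium 3′ libraries, sequenced them on a NextSeq instrument and processed them with Cell Ranger 2.0 on mm10. The deposited values are raw UMI counts per gene and barcode. Members and gene lists were chosen with earlier results of these data known. Of the pubertal tables, the first was used.

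Cells were clustered per library with scanpy 1.11.5 and Leiden (1500 variable genes without matrix, cycle, mitochondrial or ribosomal genes; 20 components; 15 neighbours; resolution 0.05). Clusters at resolution 0.6 with 5 or more high stromal markers, keratinizing clusters and clusters between LP and ML cells were left out. No doublet caller was run. Cells with a count for at least 3 of 10 cycle genes were called cycling. Counts were summed per lineage and library into 9 sums, filtered (filterByExpr) and tested with edgeR 4.0.16 quasi-likelihood (TMM, library term, Benjamini-Hochberg adjustment, threshold 0.01), with DESeq2 1.42.0 as an alternative. The p-values measure spread between 3 libraries, not animals. Stage ratios used a pseudocount of 1 CPM. Their exact binomial intervals were computed from the counts without it, so at low levels they are not centred on the ratio. The tests were tried on simulated data. Full statistics were given for up to 3 called members of a role group with the smallest adjusted p and for members past the fold, except Nid1, which is given as a bound; other genes named were chosen after their values were seen. Exons of Col3a1 and Col7a1 overlap same-strand annotations (Gm47302, Mir711), so their counts are uncertain. Promoters and positions came from RefSeq and GENCODE M21 (GRCm38). A gene of the further lists is not reported here.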

Additional observations from a re-analysis of the deposited data

How the results depend on the processing

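The count of members higher in basal cells stayed within 1.5 times of 29 under each alternative run, from 24 to 29 on leaving out a library. Leaving out a library gave 6 (without estrus) to 13 (without diestrus) members higher in LP cells, against 10, and 3 (without estrus or diestrus) to 4 higher in ML cells, against 5, and 0 to 1 higher in luminal than basal cells (Timp1, without the pubertal library). With no library term 2 members were higher in ML cells. For diestrus against estrus, pairs of member and lineage past the fold upward numbered 4, and 2 at a minimum of 50 CPM, 1 (Thbs1 in LP cells) with classes from the marker score and 8 without cells over 2 times the class median of counts; pairs past it downward numbered 3, and 6 with the marker score. For puberty, 8 pairs were past the fold upward, 5 without scaling factors and 3 at 50 CPM, and the downward count of 0 became 1 with the marker score and 1 with means over cells. The basal share of counts was 0.663%, 0.706% and 0.621% (puberty, estrus, diestrus) without the cells of high counts, 0.622%, 0.6996% and 0.63% without cycling cells, 0.623% and 0.697% (puberty, estrus) with the marker score, and 0.574% with the second pubertal table. Sparc in LP cells, diestrus against estrus, reversed to -1.27 with the marker score and to -0.095 with cells whose class and score agree. The causes were not tested. The alternatives with cells whose class and score agree, and without cells of over 5 fibrillar collagen counts, were chosen after seeing the data. The former moved no count by over 1.5 times, and the latter was followed in the basal levels. Members under 20 CPM were not read between stages at this depth. No paired analysis was possible because each stage has 1 library; the lineage tests carry a library term.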
